A study of Mus musculus with 8 samples.

Results

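Zfp36, Zfp36l1 and Zfp36l2 encode mouse CCCH tandem zinc finger proteins, and their start regions were examined in the loop lists of FOXA1 and HNF4G Hi-ChIP. Loops were chosen by the anchor positions measured in those lists: a loop entered when 1 of its anchors lay within 2 kb of an annotated start of a member, and for Zfp36l2 also when its midpoint lay in the 1 Mb window chr17:84000001-85000000 (mm10). The 3 genes stood among 10802 protein-coding genes with a start within 2 kb of an anchor. Of 249200 distinct loops in the 4 lists combined, 132 touched a member's start anchor, 466 had their midpoint in the Zfp36l2 window, and 560 met either condition. The genes were picked with earlier results of these lists known, so the numbers of loops are a description and were not tested.

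Hi-ChIP captures contacts between distant genomic fragments in chromatin pulled down with an antibody to a chosen protein. It was carried out for FOXA1 (antibody ab5089) and HNF4G (antibody HPA005438), both transcription factors, in a cell line from a primary pancreatic tumor and in the matched liver metastasis (liver mets) line of KPC mice, a genetically engineered model of pancreatic cancer. All 8 samples were described as WT in genotype and untreated, and the cells grew in DMEM with 10% FBS. Each of the 4 groups had 2 replicates joined in 1 list. The FOXA1 lists held 125623 loops for liver mets and 104136 for tumor, the HNF4G lists 78098 and 76323, and runs of 4 values below keep this list order. A single line stood for each context. No replicate spread could be calculated, library depth is unknown, and every interval given covers counting error only and treats loops as independent although they share anchors. A difference between liver mets and tumor cannot be told apart from a difference between these lines or libraries.

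Proteins of this family bind AU-rich elements in messenger RNAs and recruit the CCR4-NOT deadenylase, which shortens the poly(A) tail and leads to decay of the transcript. Zfp36, also called tristetraprolin, is best known for limiting inflammatory transcripts such as Tnf, while Zfp36l1 and Zfp36l2 act on transcripts of development, the cell cycle and differentiation. The p38 kinase and its substrate Mapkapk2 phosphorylate and restrain Zfp36, and the phosphatase Dusp1 counters p38. FOXA1 is a forkhead pioneer factor of endodermal tissues, and HNF4G is a nuclear receptor of the HNF4 family expressed in gut and pancreas.

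Each member had exactly 1 anchor at its start, and all 3 genes lie on the minus strand. Zfp36 (chr7:28376784-28380253) started inside the anchor chr7:28371999-28384091, which also held starts of Plekhg2, a guanine nucleotide exchange factor gene, and of Gm44710, so its loops cannot be assigned to Zfp36 rather than Plekhg2. Zfp36l1 (chr12:80107754-80113013) started inside chr12:80108345-80116819, together with 1300014J16Rik and Gm26669. Zfp36l2 (chr17:84183931-84187947) started inside chr17:84179684-84189686, together with AC132455.1. The next nearest anchors lay 20.99, 7.91 and 29.5 kb from the starts of Zfp36, Zfp36l1 and Zfp36l2, so none was close to the 2 kb limit. These anchors were 12.1, 8.48 and 10.0 kb wide against a median of 2.34 kb, wider than 99.9%, 99.3% and 99.7% of the 30542 anchors. The part of anchor width in the counts below was not tested.

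The sequences below were read from the GRCm38 genome and show what lay at the contacts that recurred. Letters of the forkhead consensus (TGTTTAC and TATTTAC) and of an HNF4 binding sequence (CAAAGTCCA) were searched on both strands, and each match was counted, overlapping ones included. Over all anchors there were 0.342 forkhead and 0.0168 HNF4 matches per kb, and 12.6% of anchors had a forkhead match in their central 300 bp. The Zfp36l2 start anchor held 7 forkhead matches and 1 HNF4 match, or 0.700 and 0.100 per kb. The Zfp36 and Zfp36l1 start anchors held 2 forkhead matches each and 0 HNF4 matches.

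Around Zfp36l1, 4 of the 6 partners listed in all 4 lists had a forkhead match in their central 300 bp, as had 11 of all 39 partners (28.2%). The stretches around these 4 matches are printed on the plus strand with the matched letters in capitals, the first and second from introns of Rad51b, the third outside genes and the fourth outside exons of 2310015A10Rik. In the second, matches on both strands overlap.
chr12:79353636-79353722: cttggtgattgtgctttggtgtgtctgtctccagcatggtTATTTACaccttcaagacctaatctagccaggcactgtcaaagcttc
chr12:79525705-79525791: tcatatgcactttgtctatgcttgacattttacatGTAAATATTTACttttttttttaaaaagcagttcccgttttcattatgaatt
chr12:79944804-79944890: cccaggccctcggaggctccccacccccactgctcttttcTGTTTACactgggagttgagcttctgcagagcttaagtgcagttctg
chr12:80131601-80131687: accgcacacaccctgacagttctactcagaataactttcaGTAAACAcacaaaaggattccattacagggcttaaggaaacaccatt

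Among the 18 Zfp36l2 partners in all 4 lists, 3 (16.7%) had a central forkhead match, they held 0.189 forkhead matches per kb, and 2 HNF4 matches were found along their whole length. The stretches shown are from the partner with the highest lowest value over the lists (forkhead letters), from the partner at the start of the lincRNA gene AC091309.5 (HNF4 letters) and from the partner at chr17:83972793-83974519, where the forkhead letters lay 35 bp from the middle of the anchor.
chr17:84148471-84148557: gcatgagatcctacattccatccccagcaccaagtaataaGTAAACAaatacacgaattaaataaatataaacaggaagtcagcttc
chr17:84025354-84025442: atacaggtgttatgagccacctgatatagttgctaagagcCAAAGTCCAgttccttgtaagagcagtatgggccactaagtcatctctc
chr17:83973648-83973734: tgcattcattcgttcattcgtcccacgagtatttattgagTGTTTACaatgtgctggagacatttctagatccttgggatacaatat

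For Zfp36, 0 of the 6 partners in all 4 lists had a central match, and the 52 partners held 0.1998 forkhead matches per kb. The Zfp36l2 partners held 0.272 and the Zfp36l1 partners 0.387, on either side of the 0.342 of all anchors. The first of the 6 Zfp36 partners by lowest value, at the start of Actn4, held 1 forkhead match, 1484 bp from the anchor's middle, and the partner nearest to the Zfp36 start held 2, of which 1 is shown.
chr7:28959785-28959871: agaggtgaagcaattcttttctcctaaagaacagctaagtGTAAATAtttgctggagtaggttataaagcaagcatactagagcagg
chr7:28358136-28358222: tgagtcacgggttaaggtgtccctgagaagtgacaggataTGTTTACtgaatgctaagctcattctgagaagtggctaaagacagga

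Promoter sequences for Zfp36 and Zfp36l1 came from RefSeq on GRCm38.p6 and covered 250 bases before the start to 50 after it. Neither promoter held forkhead or HNF4 letters, which 6.54% and 0.475% of 32851 promoters held. The 250 bases before the Zfp36l1 start lie inside the start anchor that all its loops share and are printed on the minus strand, in the direction of the gene, with no capitals because nothing matched.
chr12:80113014-80113263: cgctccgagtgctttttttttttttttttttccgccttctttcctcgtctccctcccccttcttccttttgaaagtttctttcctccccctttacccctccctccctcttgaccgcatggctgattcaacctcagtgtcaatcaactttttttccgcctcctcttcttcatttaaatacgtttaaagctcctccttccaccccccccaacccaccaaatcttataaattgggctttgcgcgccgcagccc

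The number of loops at each start was compared across the lists. With FOXA1, Zfp36 had 37 loops in liver mets and 26 in tumor, and with HNF4G 21 and 23. Zfp36l1 had 25, 22, 15 and 16 in list order, the fewest of the family in all 4 lists. Zfp36l2 had 32, 32, 28 and 27. Per kb of anchor, Zfp36l2 was highest in every list, from 2.70 loops per kb in HNF4G tumor to 3.20 in both FOXA1 lists, while Zfp36 ranged from 1.74 to 3.06 and Zfp36l1 from 1.77 to 2.95. Summed over the lists this gave 11.9 loops per kb for Zfp36l2, 9.20 for Zfp36l1 and 8.85 for Zfp36. The Poisson intervals of the loop counts of the 3 genes overlapped in each list. They cover the counts and not the loops per kb or the sums. Overlap does not show that the genes are alike, and the order was not tested.

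**Figure D1:**
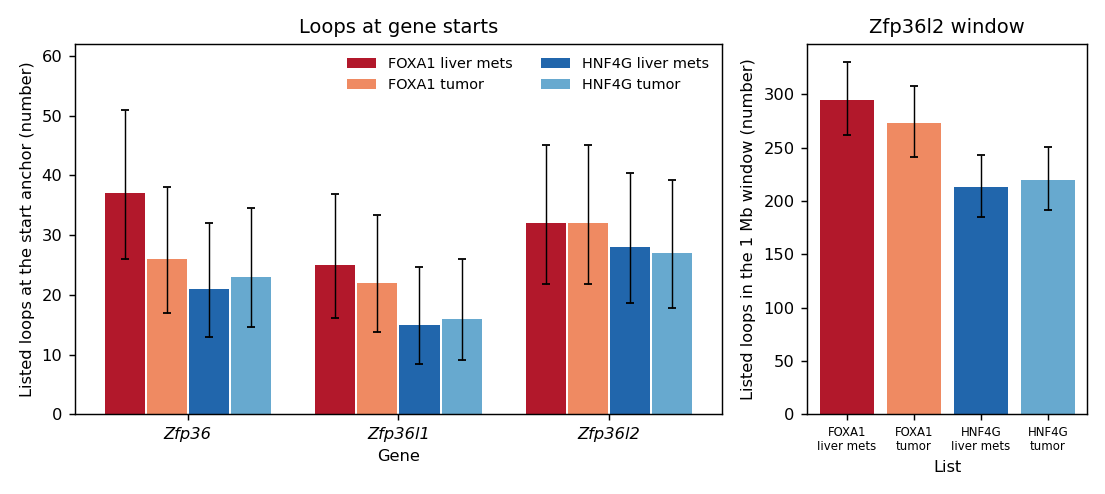
Number of listed loops (y axis, linear) at the start anchor of each gene (left) and in the Zfp36l2 window (right), 1 bar per list. Error bars are exact Poisson 95% intervals of 1 list and hold no replicate spread. Zfp36l2 bars are nearly level at 27 to 32, and the FOXA1 liver mets bar of Zfp36 reaches 37.

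The liver mets to tumor ratios ranged from 0.913 to 1.42. For Zfp36 the ratio was 1.42 with FOXA1 (exact 95% interval 0.839 to 2.45) and 0.913 with HNF4G (0.481 to 1.73). For Zfp36l1 it was 1.14 with FOXA1 (0.615 to 2.11) and 0.938 with HNF4G (0.432 to 2.02). For Zfp36l2 it was 1.00 with FOXA1 (0.593 to 1.69) and 1.04 with HNF4G (0.589 to 1.83). All 6 intervals held 1, so no difference was detectable by counting. After division by list size the FOXA1 ratio was 1.18 for Zfp36, 0.942 for Zfp36l1 and 0.829 for Zfp36l2. At 1.5-fold of these list shares, 0 of the 3 members were higher and 0 lower in liver mets for either factor. Among all genes with 20 or more loops, 6.86% were higher and 9.46% lower in FOXA1 liver mets, and 6.75% higher and 14.8% lower in HNF4G liver mets. A count of 0 in 3 is close to these shares and says nothing particular of the family.

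Between factors, the ratio of FOXA1 to HNF4G loops at Zfp36 in liver mets was 1.76 (95% interval 1.00 to 3.17) and in tumor 1.13 (0.620 to 2.07). Divided by list size these were 1.10 (0.625 to 1.97) and 0.829 (0.454 to 1.52), on different sides of 1. At Zfp36l1 the ratios were 1.67 in liver mets and 1.38 in tumor, and 1.04 and 1.01 after division by list size. At Zfp36l2 the corresponding ratios were 1.14 in liver mets and 1.19 in tumor, and 0.711 and 0.869 after division by list size. The lists came from different antibodies and differed in size, so these ratios describe the lists.

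Zfp36l2 had the most loops with high values and the most recurrent contacts of the family, and most of them reached downstream of the gene, away from Thada. The value attached to each loop is taken as the −log10 of an adjusted p, so that 2 corresponds to an adjusted p of 0.01, and it is capped at 20. Depth is unknown and the tied values differ between lists, so values of different lists are not on a known common scale. Where values are set side by side across lists below, this describes the lists and was not tested. Of its 41 distinct partners, 29 lay downstream and 12 upstream. All 21 anchors within 250 kb downstream were partners in at least 1 list, and 15 of them in all 4 lists. All 9 anchors within 250 kb upstream were also partners, but 2 of them in all 4 lists. Downstream loops numbered 22, 25, 22 and 20 in list order, and upstream loops 10, 7, 6 and 7. The other members also had all anchors within 250 kb downstream as partners in at least 1 list. These were 7 for Zfp36, 4 of them in all 4 lists, and 11 for Zfp36l1, 3 of them in all 4 lists. Upstream, 11 of 12 anchors were partners for Zfp36 and 6 of 10 for Zfp36l1. Such shares within 250 kb were not calculated for all anchors.

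The partner at chr17:84139919-84154694, 37.4 kb away at the start of the lincRNA gene AC132455.2, had values of 20 in both FOXA1 lists and of 10.3 in both HNF4G lists. The partner at chr17:84109118-84120996, 69.6 kb away and outside genes, had 20, 20, 6.39 and 10.9. The partner at chr17:84022985-84029635, 158.4 kb away at the start of AC091309.5, had 20, 6.11, 7.11 and 20. Thus all 3 stood far above 2 in every list, and they reached the cap in different lists. A further partner at AC132455.2, chr17:84130743-84139399, had 20 in FOXA1 liver mets and between 5.43 and 7.09 in the other lists. In the order named, these anchors were 14.8, 11.9, 6.65 and 8.66 kb wide, against a median of 2.34 kb over all anchors. The part of their width in the values was not tested. The next 4 partners by lowest value lay 185.5 to 221.3 kb away. Of these chr17:83972793-83974519 had 6.68, 9.26, 5.25 and 7.54, and chr17:83961526-83965294 had 4.67, 4.82, 5.40 and 7.59. The partner at chr17:83989418-83994217 had 10.99, 9.03, 5.12 and 3.08. The partner at chr17:83997082-84001228, at the start of AC091309.2, had 10.7 and 2.74 with FOXA1 and 7.52 and 7.20 with HNF4G. These 8 partners were the only loops of the family with a value of 2 or more in all 4 lists. Zfp36 and Zfp36l1 each had 6 loops in all 4 lists, and 0 of them reached 2 throughout. For the Zfp36l1 partner at chr12:79351462-79355791, only the 1.99 in HNF4G liver mets, a tied value of that list, fell below 2.

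Upstream, the Zfp36l2 start contacted Thada, a neighbouring gene with a role in energy balance. The partner at chr17:84330541-84334138, 147.7 kb away in Thada, had values of 5.28, 5.87, 1.64 and 2.74. Its neighbour at chr17:84334911-84338278, at a start of Thada, had 1.22, 2.49, 1.67 and 8.74. The higher values thus fell in the FOXA1 lists for the first and in HNF4G tumor for the second. Beyond Thada, Plekhh2 was listed in both FOXA1 lists with 1.70 in liver mets and 3.31 in tumor, and Dync2li1, a dynein light intermediate chain gene, in FOXA1 liver mets with 1.78.

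**Figure D2:**
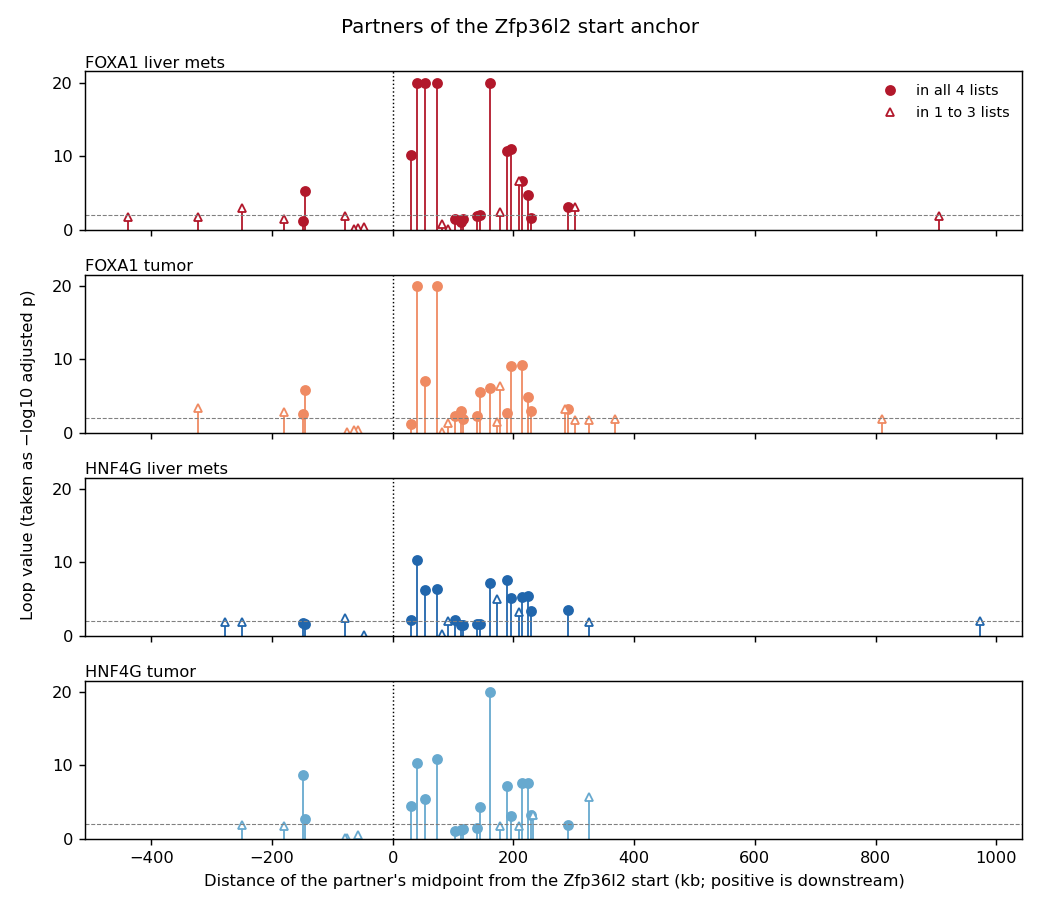
Each stem is a loop from the Zfp36l2 start anchor, with the distance of the partner's midpoint from the start in kb on the x axis (positive is downstream) and the loop value on the y axis, 1 panel per list. Filled circles are loops in all 4 lists, open triangles loops in 1 to 3 lists, and the dashed line marks a value of 2. Most filled stems above the line stand between 30.9 and 229.0 kb downstream, though not every filled stem there passes it in each panel. Upstream, filled stems reach 5.28 and 5.87 at 144.4 kb in the FOXA1 liver mets and tumor panels, and 8.74 at 148.6 kb in HNF4G tumor.

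High values were frequent at Zfp36l2 within matched spans. Between 20 and 100 kb, 4 of 10, 3 of 9, 3 of 8 and 4 of 7 loops in list order had a value of 4 or more. Over all loops of that span, 1.09%, 0.477%, 0.721% and 0.703% had this. Between 100 and 500 kb the Zfp36l2 counts were 7 of 21, 7 of 22, 6 of 19 and 7 of 20, against 4.14%, 3.13%, 2.90% and 2.86% of all loops. Zfp36l2 thus exceeded the share over all loops in every list and in both span ranges, as a description of 1 anchor. Anchor width was not matched. Other members exceeded it elsewhere. At 500 kb and over, Zfp36l1 had 3 of 11, 2 of 7, 1 of 6 and 2 of 5, against 1.42%, 0.859%, 1.45% and 1.52% of all loops. From 100 to 500 kb, Zfp36 had 4 of 20 and 2 of 13 with FOXA1, and 0 of 13 in each HNF4G list. From 20 to 100 kb, Zfp36 and Zfp36l1 had 0 in every list.

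The 1 Mb window with Zfp36l2 held 295 FOXA1 loops for liver mets and 273 for tumor, and 213 and 220 HNF4G loops. The window's loops ranked 82, 67, 67 and 59 among 1964 windows, whose medians were 24.5, 20, 15 and 13 loops. The liver mets to tumor ratio was 1.08 for FOXA1 (0.913 to 1.28) and 0.968 for HNF4G (0.798 to 1.17), and both intervals held 1. Of 528 possible pairs of its 33 anchors, 34.5%, 31.1%, 24.6% and 24.1% were listed. In 210 windows with 28 to 38 anchors the medians were 21.9%, 18.6%, 14.2% and 13.3%, and 10, 5, 6 and 7 of these windows had a higher share. The window was dense for its number of anchors, in all 4 lists.

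Within the window, loops with both anchors downstream of the Zfp36l2 start anchor made up 43.1%, 46.5%, 51.6% and 49.5% of loops in list order. Those with both anchors upstream made up 14.6%, 13.9%, 13.1% and 10.5%. The window holds 14 anchors downstream and 18 upstream of the start anchor, and its downstream part is the shorter one. Loops taken by midpoint also use anchors outside the window, so these anchor numbers are not the base of the 2 sets of shares. Density per anchor was not compared between the sides. Spans were not matched between the 2 sides. The window's loops were counted by midpoint, and 182, 164, 130 and 127 of them had both anchors inside the window. The Zfp36l2 start anchor itself took part in 31, 31, 27 and 27 of the loops. Loops with a value of 2 or more made up 28.5%, 27.1%, 25.4% and 27.7% of the window, against 9.33%, 7.84%, 7.21% and 7.32% of whole lists. The anchor at chr17:84109118-84120996, outside genes, had the most loops summed over the lists (125), with 37, 29, 29 and 30. The Zfp36l2 start anchor came next with 119 and led in FOXA1 tumor with 32. By the same sum the AC132455.2 anchor chr17:84139919-84154694 followed with 32, 31, 24 and 27, then AC091309.5 with 24, 28, 27 and 22 and the second AC132455.2 anchor with 27, 24, 21 and 25. All of the partner anchors named here were thus joined to many other anchors and not to Zfp36l2 alone.

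Other protein-coding genes of the window had starts with fewer or more contacts. Thada had 49, 37, 31 and 34 loops, counted over several start anchors. Plekhh2 had 24, 15, 7 and 3, and Dync2li1 had 7, 1, 0 and 1. Ppm1b, a phosphatase gene near the window's far end, had 2, 1, 3 and 4. The sterol transporter genes Abcg5 and Abcg8, and Lrpprc, a gene for a mitochondrial RNA-binding protein, had no anchor within 2 kb of a start. At the window's lower edge, the last loop midpoint outside lay 0.018 kb before it, with values from 0.171 to 1.87 in the 4 lists, and the first inside lay 0.342 kb after it, with 4.55 in FOXA1 liver mets. At the upper edge the last midpoint inside lay 14.99 kb before it, with values from 1.51 to 5.24, and the first outside lay 8.60 kb after it, with 1.87.

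Zfp36l1 had its highest values in far contacts with introns of Rad51b, a gene of homologous recombination repair that lies downstream. Of 18 anchors overlapping Rad51b (chr12:79297282-79814690), 15 were partners of the Zfp36l1 start, at 451.4 to 815.7 kb. They made up 11 of the 25 liver mets and 6 of the 22 tumor loops with FOXA1, and 7 of 15 and 5 of 16 with HNF4G. Of them 7, 2, 3 and 2 had a value of 2 or more, and 2 were in all 4 lists.

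The partner at chr12:79351462-79355791, 759.0 kb away, had values of 20 and 12.2 with FOXA1 in liver mets and tumor, and of 1.99 and 6.64 with HNF4G. The value in HNF4G liver mets is the higher of the tied values of that list and lay below 2. The partner at chr12:79597952-79601773, 512.7 kb away, had 3.50, 11.4 and 9.20 in the first 3 lists and was not listed in HNF4G tumor. The partner at chr12:79530776-79534105 had 8.71 in FOXA1 liver mets, 1.99 in both HNF4G lists, and was not listed in FOXA1 tumor. The partner at chr12:79558551-79561129 had 8.54, 1.89 and 1.99 and was not listed in HNF4G tumor. The order of the lists therefore differed from partner to partner. The partner at chr12:79611713-79613642 was listed in HNF4G liver mets alone, with 6.32. The second partner in all 4 lists, chr12:79524323-79527223, had 1.85, 1.90, 1.99 and 1.99, under 2 throughout.

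Between Rad51b and Zfp36l1, the anchor at chr12:79943514-79946419, 167.6 kb away and outside genes, had 3.92, 4.22, 1.70 and 1.68. It was higher in both FOXA1 lists than in both HNF4G lists. The 3 other partners in all 4 lists lay 8.91 to 21.1 kb from the start, with values between 0.107 and 2.02. Plek2, the pleckstrin 2 gene 1203 kb downstream, was listed in both HNF4G lists with 1.99 in liver mets and 4.10 in tumor. Upstream partners were 11 of 39 and included Actn1, an alpha-actinin gene, with values from 1.19 to 1.59 at its start in 3 lists. Only 1 upstream loop, in FOXA1 tumor, had a value of 2 or more.

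**Figure D3:**
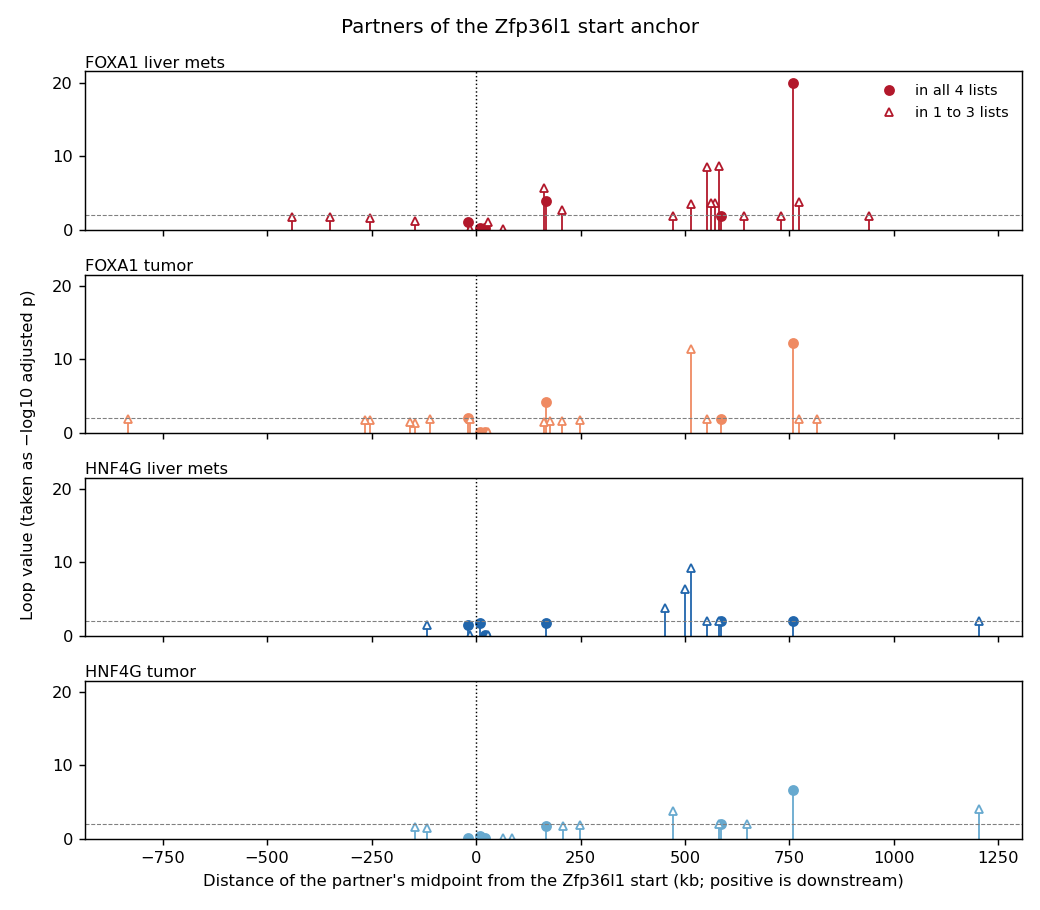
Loops from the Zfp36l1 start anchor, with the partner's distance from the start in kb on the x axis (positive is downstream) and the loop value on the y axis, 1 panel per list. Symbols and the dashed line are as for Zfp36l2. The tallest stem of each panel stands 513.2 or 759.4 kb downstream, in Rad51b, and the FOXA1 liver mets panel has the most Rad51b stems above the line. Outside Rad51b, stems reach 5.66 at 162.6 kb in FOXA1 liver mets, 4.22 at 168.0 kb in FOXA1 tumor and 4.10 at 1203.5 kb in HNF4G tumor.

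Zfp36, together with Plekhg2, had partners mostly upstream and mostly at gene starts, and its highest value was below that of the other members in each list. Of 52 partners 42 lay upstream, and 34 (65.4%) had an annotated start within 2 kb, as had 45.2% of all anchors. A start was near 10 of 39 Zfp36l1 partners (25.6%) and 17 of 41 Zfp36l2 partners (41.5%). A value of 4 or more in at least 1 list was reached by 6 of the 52, against 8 of 39 for Zfp36l1 and 16 of 41 for Zfp36l2. The highest values were 8.26 and 7.48 with FOXA1 in liver mets and tumor, and 2.97 and 3.97 with HNF4G. Its values were not lower throughout, since in FOXA1 tumor 9 of its 26 loops had a value of 2 or more, against 4 of 22 for Zfp36l1.

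The partner at chr7:28807455-28815307, 433.3 kb away at the start of the splicing factor gene Hnrnpl, had values of 8.26 and 1.87 with FOXA1 in liver mets and tumor, and of 1.96 and 1.95 with HNF4G. The partner at chr7:28958343-28964282, 583.3 kb away at the start of the actin crosslinker gene Actn4, had 3.69, 3.71, 1.99 and 1.98. Both were in all 4 lists. The Hnrnpl partner was above 2 only in FOXA1 liver mets, and the Actn4 partner only in the FOXA1 lists. Their HNF4G values of 1.95 to 1.99 lay just under 2, close to the higher tied value of 1.99 in each HNF4G list. The cut at 2 therefore does not set the factors apart here. The partner at the shared start region of Nfkbib, an inhibitor of NF-kB, and of the deacetylase gene Sirt2 had 5.47, 1.86 and 1.93 and was not listed in HNF4G tumor. An intron of Acp7 had 2.87, 7.48 and 1.81 and was also not listed there. Ech1, a gene of fatty acid oxidation, had 1.78, 5.95 and 1.95, likewise absent from HNF4G tumor. Thus the list with the highest value was FOXA1 liver mets for Hnrnpl and Nfkbib and FOXA1 tumor for Acp7 and Ech1.

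Other kinase and pancreas genes stood among the partners. The start of Dyrk1b, a protein kinase gene 198.2 kb downstream, had 4.37 in FOXA1 liver mets, and 1.76 and 3.05 with HNF4G. At Pak4, another kinase gene, the partner chr7:28569887-28572033 had 4.25 in FOXA1 liver mets and 2.93 in FOXA1 tumor and was not listed with HNF4G. Other Pak4 partners were listed with HNF4G. The partner chr7:28595951-28598816, at a start of Pak4 and Samd4b, had 2.85 in FOXA1 liver mets and 1.80 in HNF4G liver mets. The intron partner chr7:28575750-28579909 had 2.67 in FOXA1 liver mets, and 1.75 and 1.71 with HNF4G in liver mets and tumor. Sycn, which encodes a protein of pancreatic zymogen granules, had 1.29 in FOXA1 liver mets, and 2.97 and 1.62 with HNF4G. It was the highest Zfp36 value in HNF4G liver mets. In HNF4G tumor the highest were Yif1b with 3.97 and Zfp850 with 3.52. The next Zfp36 values in HNF4G liver mets belonged to an intron of Sipa1l3 and to Zfp568, both at the tied 1.99, and an intron of Sipa1l3 had 3.91 in FOXA1 tumor. The remaining 4 partners in all 4 lists lay 20.4 to 65.7 kb downstream and included Supt5, an elongation factor gene, with 0.283, 1.43, 0.146 and 0.920, and Timm50, a mitochondrial import gene, with 0.768, 0.442, 0.146 and 0.171.

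**Figure D4:**
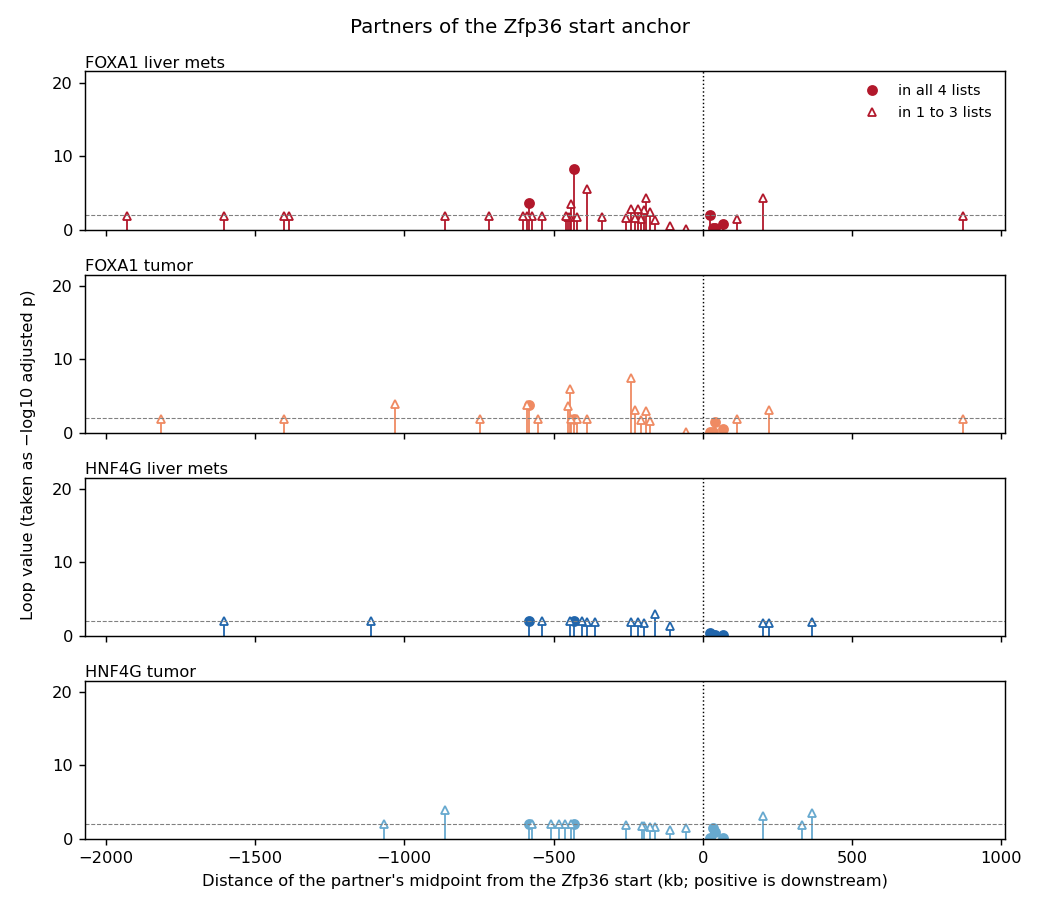
Loops from the start anchor of Zfp36 and Plekhg2, with the partner's distance from the Zfp36 start in kb on the x axis (positive is downstream) and the loop value on the y axis, 1 panel per list. Symbols and the dashed line are as for Zfp36l2. Stems above the line in the FOXA1 panels stand mostly 176.1 to 590.5 kb upstream, while with HNF4G 1 stem passes it in liver mets and 3 in tumor.

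List membership differed along the family. Of the Zfp36l2 loops, 18 of 41 (43.9%, Wilson 95% interval 29.9 to 59.0) were in all 4 lists, against 5.28% of all 249200 loops. For Zfp36l1 this was 6 of 39 (15.4%, 7.25 to 29.7) and for Zfp36 6 of 52 (11.5%, 5.40 to 23.0). Loops in 1 list only made up 19.5% for Zfp36l2, 46.2% for Zfp36l1 and 36.5% for Zfp36, against 65.6% of all loops. Since short loops recur more, shares were also taken within span ranges, which do not match anchor width. From 100 to 500 kb, 14 of 27 Zfp36l2 loops (51.9%, 34.0 to 69.3) were in all 4 lists, against 1 of 17 for Zfp36l1, 1 of 28 for Zfp36 and 1.97% of all loops. From 20 to 100 kb the counts were 4 of 11 for Zfp36l2, 1 of 4 for Zfp36l1 and 4 of 5 for Zfp36, against 10.3%. Under 20 kb only Zfp36l1 had loops, 2 of 3 in all 4 lists against 30.0%. At 500 kb and over, 2 of 15 Zfp36l1 loops, 1 of 19 Zfp36 loops and 0 of 3 Zfp36l2 loops (upper Wilson bound 56.1%) were in all 4 lists, against 0.170%. From 100 to 500 kb, the intervals of Zfp36 (0.633 to 17.7) and Zfp36l1 (1.05 to 27.0) held the background share and that of Zfp36l2 did not. The background also lay outside the intervals of Zfp36 and Zfp36l2 from 20 to 100 kb (37.6 to 96.4 and 15.2 to 64.6). At 500 kb and over it lay outside those of Zfp36 (0.935 to 24.6) and Zfp36l1 (3.74 to 37.9), which rest on 1 and 2 loops in all 4 lists. The 4 Zfp36 loops from 20 to 100 kb in all 4 lists had lowest values of only 0.123 to 0.146. The loops of a gene share 1 anchor, and the genes were picked with earlier results known. These intervals are therefore descriptions and not a test against the background.

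**Figure D5:**
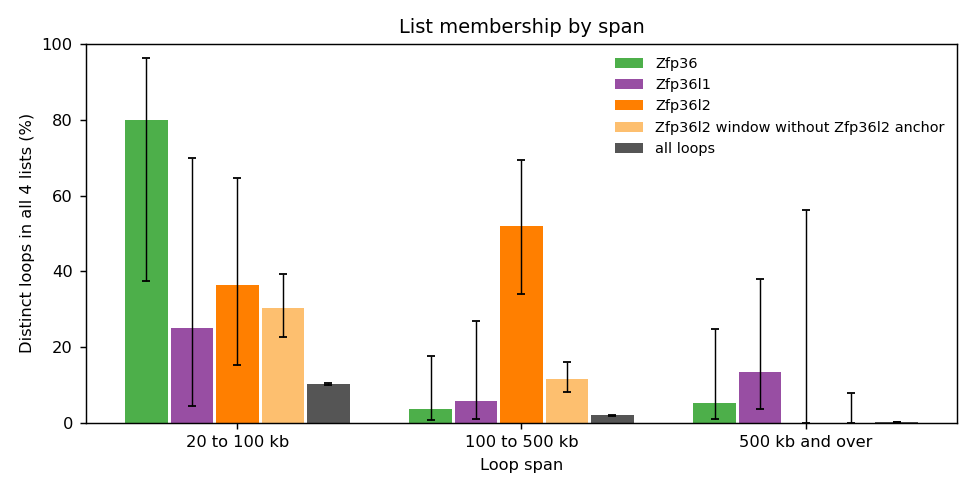
Share of distinct loops found in all 4 lists (y axis, percent) by loop span (x axis), for the start anchors of the 3 genes, for the Zfp36l2 window without loops at the Zfp36l2 anchor, and for all loops. Error bars are Wilson 95% intervals. From 100 to 500 kb the Zfp36l2 bar stands at 51.9% and the bar for all loops at 1.97%.

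The rest of the Zfp36l2 window shared part of this pattern. Without loops at the Zfp36l2 anchor, 29 of 251 window loops from 100 to 500 kb (11.6%, 8.17 to 16.1) were in all 4 lists, and 34 of 112 (30.4%) from 20 to 100 kb. The intervals of the Zfp36l2 anchor and of the rest of its window from 100 to 500 kb did not overlap. Of the 43 anchors within 500 kb of the Zfp36l2 start anchor, 31 were listed partners in each FOXA1 list and 27 in each HNF4G list. This share was higher than for 99.4% to 99.8% of the 27051 anchors with which it was compared. For Zfp36 the share was 25 of 34 in FOXA1 liver mets (73.5%, against 72.1% for Zfp36l2), and over the lists it was higher than for 97.9% to 99.5% of anchors. For Zfp36l1 it was higher than for 88.9% to 96.8%.

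By list, 19 Zfp36 loops (36.5%) were in FOXA1 lists only, 9 of them in both (17.3%), and 10 (19.2%) were in HNF4G lists only, 1 of them in both. Over all 249200 loops, 48.3% were in FOXA1 lists only, 5.88% in both of these and no other, 25.0% in HNF4G lists only and 1.81% in both of these and no other. The FOXA1 lists are the longer ones. For Zfp36l1 the corresponding counts were 17 with 4 in both, and 7 with 2 in both, and for Zfp36l2 8 with 3 in both, and 3 with 0 in both. Loops in both liver mets lists and no tumor list numbered 3 for Zfp36, 0 for Zfp36l1 and 1 for Zfp36l2. Loops in both tumor lists and no liver mets list numbered 0, 1 and 1. Over all loops these patterns made up 3.64% and 2.48%.

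Among protein-coding genes, the members stood high by number of loops. Zfp36 exceeded 93.0% to 95.3% of the 10802 genes in each list, Zfp36l1 86.7% to 90.3% and Zfp36l2 93.6% to 96.6%. The median gene had 7, 6, 5 and 5 loops. The genes with the most similar shares over the 4 lists (Euclidean distance of the 4 shares, each count divided by list size) were Agap1, Sart1 and Atg9b for Zfp36, Zmynd8, Ttc25 and Plcb3 for Zfp36l1, and Tcf3, Trim56 and Kpnb1 for Zfp36l2. Their distances were 0.0057 to 0.0091, 0.0070 to 0.0103 and 0.0071 to 0.0087. Of 2338 genes compared over these 4 lists, 386, 421 and 377 lay within 0.05 of Zfp36, Zfp36l1 and Zfp36l2, so the pattern was common.

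The partners and targets of the family were examined from fixed lists of genes. Of 20 genes of deadenylation, decapping and decay (CCR4-NOT, PAN, decapping, exosome), 18 had a start anchor, with a median of 15.5 loops over the 4 lists against 107 for the family and 23.0 for all genes. With FOXA1 4 of the 20 had enough loops, and 1 was past 1.5-fold: Exosc4, an exosome subunit gene, had 22 liver mets and 6 tumor loops (ratio of list shares 3.04), and 16 and 14 loops with HNF4G. Of 10 other AU-rich element or decay factors, Khsrp had the most, with 18, 19, 17 and 17 loops, and 0 of 1 tested was past the fold with either factor. Among 10 regulators of the family, 0 of 7 were past it with FOXA1 and 0 of 5 with HNF4G. Dusp1 led them with 54, 59, 44 and 43 loops, followed by Akt1 with 26, 31, 27 and 21. Mapkapk2 had 14, 16, 11 and 8.

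Of 20 genes whose messenger RNAs carry AU-rich elements, 17 had a start anchor, with a median of 42.0 loops. Vegfa had 43, 34, 31 and 34, Ccnd1 had 38, 32, 20 and 24, and Myc had 35, 30, 25 and 21. With FOXA1 2 of 11 were past 1.5-fold higher in liver mets and 0 lower. Pim1, a kinase gene, had 22 loops in liver mets and 11 in tumor (ratio of shares 1.66), and Mcl1, an anti-apoptotic gene, had 13 and 7 (1.54). With HNF4G 0 of 9 were higher and 2 lower. Fos had 8 loops in liver mets and 12 in tumor (0.652), and the Notch ligand gene Dll4 had 14 and 22 (0.622). Tnf, the best known target, had 27, 28, 16 and 21 loops and ratios of shares of 0.799 and 0.745. The median ratio of shares was 0.967 with FOXA1, as over all genes (0.967), and 0.888 with HNF4G against 0.921 over all genes. Read against the background of 6.86% to 14.8% of genes per direction, lists this short gave counts too small to set them apart.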

How the data were processed

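Hi-ChIP loop lists of 8 mouse samples in 4 groups were analysed, with groups taken from the sample titles. HiC-Pro (version 3.1.0 in the submitters' processing notes) mapped reads to mm10 (GRCm38), assigned them to DpnII fragments and removed duplicates, and hichipper called the loops; how both replicates were joined is not given in the sources used here. Each deposited list gave the coordinates of both anchors, an unnamed value and a display score. The deposited value was taken to be a −log10 of an adjusted p, since it forms long runs of ties and ends at exactly 20, and the deposited score followed from it (its whole part and 1 were added and multiplied by 10) with 0 exceptions. A pair of tied values made up 25.3% to 32.4% of each list, and the ties differ between lists.

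Starts and exons came from GENCODE M21 on GRCm38 and promoters from RefSeq on GRCm38.p6, where 2 of the 3 members were matched by symbol. An anchor belonged to a gene when a start lay within 2 kb. Span ran from midpoint to midpoint of the anchors, and a shared loop had both anchors identical. Intervals (95%) were exact Clopper-Pearson ones for ratios, conditional on the sum of both counts, Wilson ones for shares and exact Poisson ones for counts in plots. With 1 list per group no test was run and no p-value calculated; paired reads per loop and depth were not analysed here. Folds of at least 1.5 were read on list shares of genes with 20 or more loops, and likeness on genes with 50 or more. The members and gene lists were chosen with earlier results of these data known. Named were, per member, up to 8 partners in all 4 lists by lowest value, the 3 loops of highest value per list, the 5 anchors with most loops and the protein-coding genes of the window, list genes with most loops or past the fold, and the 3 most alike genes. A few further partners at gene starts or introns (Pak4, Actn1, Thada, Plekhh2, Dync2li1 and the Rad51b intron listed in HNF4G liver mets alone among them) and list genes (Mapkapk2, Tnf) were named after their values were seen. The planned comparison of the family's proteins was not made, as no protein sequences were used here. Alternatives were a minimum value of 2 or 4, a minimum span of 20 kb, a start inside or within 5 kb of an anchor, division by list size, windows by both anchors and anchors widened by 5 kb. The counting was tested on simulated data. Python 3.11.15 with pandas 2.3.3, numpy 2.4.6 and scipy 1.17.1 was used, and matplotlib 3.10.9 for the plots.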

Additional observations from a re-analysis of the deposited data

Results flagged for a closer look

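With FOXA1 the liver mets to tumor ratio lay above 1 and with HNF4G below 1 at 3 of the loci examined. At the Zfp36 start the ratios were 1.42 and 0.913, at the Zfp36l1 start 1.14 and 0.938, and in the Zfp36l2 window 1.08 and 0.968. All intervals held 1. Each group has 1 list, so whether the factors differ was not tested. The FOXA1 liver mets list is also the longer one, with 125623 loops against 104136 in tumor. After division by list size the FOXA1 ratio at Zfp36l1 was 0.942 and in the Zfp36l2 window 0.896, both below 1 as with HNF4G. At Zfp36 the ratios of 1.18 and 0.892 kept opposite sides of 1, and at the Zfp36l2 start they took opposite sides the other way, with 0.829 for FOXA1 and 1.01 for HNF4G.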

How the results depend on the processing

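Of 45 recalculated liver mets to tumor ratios, 41 stayed inside the 95% interval of the reported value, and all 45 had intervals that held 1. No ratio crossed 1 with an interval that left it out. The 4 that moved further were Zfp36 with HNF4G at a value of 2 or more (0.333, from 1 and 3 loops), Zfp36l1 with FOXA1 at a value of 2 or more (2.50, from 10 and 4 loops), the Zfp36l2 window with FOXA1 divided by list size (0.896), and the window with HNF4G at a value of 4 or more (0.735). Zfp36 with HNF4G had no loop with a value of 4 or more and gave no ratio. The start being inside or within 5 kb of an anchor gave the same loops.

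Shares of loops by list membership depended on the minimum value and on the matching of anchors, and 20 of 32 moved outside their interval. In all 4 lists, a value of 2 or more left 0% for Zfp36, 0% for Zfp36l1, 28.6% for Zfp36l2 and 14.4% for the window, and a value of 4 or more 0%, 0%, 37.5% and 15.7%. In 1 list only, a value of 2 or more gave 78.9%, 80.0%, 39.3% and 52.1%, and a value of 4 or more 100%, 75.0%, 31.2% and 47.1%. Anchors widened by 5 kb gave 32.7%, 48.7%, 70.7% and 59.0% in all 4 lists and 26.9%, 10.3%, 14.6% and 16.7% in 1 list only. Zfp36l2 had the highest share in all 4 lists under each of these settings. A minimum value removes loops list by list and widening adds matches by its construction.

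No paired analysis was possible because each list joins both replicates and holds no value per replicate, and no replicate was left out. Depth and paired reads per loop are unknown.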
